A study of Mus musculus with 2 samples.

Results

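Cluster 8 of the authors' deposited clustering was a small group of CD45+ leukocytes from mouse adipose tissue with high levels of Retnla, Fcrls and Lyz1. Its members were taken as every cell with cluster number 8 at the deposited resolution of 0.5. This gave 409 of the 10017 clustered cells, out of 10159 cells in all. Of these, 362 came from the chow library and 47 from the ketogenic library. The study had fed wild-type C57BL/6 mice, titled adult, chow as the control or a ketogenic diet, which is rich in fat and poor in carbohydrate, for 1 week. Tissue-resident cells of the visceral adipose depot had been told from cells in blood by an intravenous label, sorted as CD45+ and profiled by 10x Genomics single-cell RNA sequencing. Both groups share the strain, the genotype, the tissue and the CD45+ selection, and differ in diet. Each diet was represented by 1 library, and the number of mice pooled in it is not given in the sources used here, so no difference between the diets could be tested.

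Retnla encodes resistin-like molecule alpha, a secreted protein that macrophages make in response to the cytokines IL-4 and IL-13 through the transcription factor STAT6. Fcrls encodes an Fc receptor-like scavenger protein best known from microglia. Lyz1 encodes the P-type lysozyme, known from Paneth cells of the gut, and lies beside Lyz2, the M-type lysozyme of myeloid cells. Ear2 encodes a secretory ribonuclease of the eosinophil-associated family, Fn1 the matrix protein fibronectin, and Aldh1a2 an enzyme that makes retinoic acid. Fat depots lined by serous membranes hold several mononuclear phagocytes, among them resident macrophages, monocyte-derived cells that carry MHC class II, and conventional dendritic cells (cDC).

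Expression was read as unique molecular identifiers (UMIs), tags that count captured transcripts, and sums over cells are given as CPM, UMIs of a gene per 1000000 UMIs of the same cells. Cluster 8 held 2911633 UMIs under chow and 251922 under the ketogenic diet. Its median depth was 7938.5 UMIs and 2128.5 genes per cell under chow, against 4581 UMIs and 1435 genes under the ketogenic diet. Mitochondrial transcripts made up a median of 1.81% of a chow cell's UMIs and 1.11% of a ketogenic cell's. Over whole libraries the median depth was alike, at 3469 and 3461.5 UMIs per cell. The libraries shared 41 cell barcodes, 2 of which were chow cells of cluster 8. Square brackets give 95% intervals, which cover counting error only.

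The promoters of Retnla and of the lysozyme pair are shown because Retnla and Lyz1 are markers of the cluster and Lyz2 is a close copy of Lyz1. The sequences are RefSeq's for GRCm38.p6, read on the gene's strand from 250 bases before the start. Bases that GENCODE M21 places inside the gene are left out. Capitals mark matches on either strand to a STAT6 motif (TTC and GAA with 4 bases of any kind between), a C/EBP motif (TTGCNNAA) or an ETS motif (AGGAAGT).
Retnla, chr16:48842359-48842550, plus strand: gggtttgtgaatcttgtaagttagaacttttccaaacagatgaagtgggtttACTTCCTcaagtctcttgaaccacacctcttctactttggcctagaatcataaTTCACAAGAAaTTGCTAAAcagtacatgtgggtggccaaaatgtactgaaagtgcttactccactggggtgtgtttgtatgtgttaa
Lyz1, chr10:117292869-117293118, minus strand: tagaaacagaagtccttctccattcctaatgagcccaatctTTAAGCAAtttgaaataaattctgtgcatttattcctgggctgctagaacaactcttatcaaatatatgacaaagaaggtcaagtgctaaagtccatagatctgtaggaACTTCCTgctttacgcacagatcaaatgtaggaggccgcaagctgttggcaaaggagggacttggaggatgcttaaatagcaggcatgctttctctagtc
Lyz2, chr10:117282322-117282522, minus strand: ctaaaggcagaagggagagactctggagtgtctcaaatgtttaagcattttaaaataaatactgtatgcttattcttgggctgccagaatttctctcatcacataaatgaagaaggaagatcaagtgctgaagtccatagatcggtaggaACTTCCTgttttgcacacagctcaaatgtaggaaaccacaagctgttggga
The 3 motifs of Retnla began 198 (ETS), 145 (STAT6) and 134 (C/EBP) bases before the RefSeq start, the last a base apart from the STAT6 match. Of 32851 promoters of this length, 5.85% held the STAT6 letters, 9.56% the C/EBP letters and 7.69% the ETS letters. Over the full windows, Lyz1 and Lyz2 were identical at 152 of 250 bases and at all of the last 50. The C/EBP letters of Lyz1, 209 bases before the start, had no match in the Lyz2 window. A match to letters is a description of the sequence, not a bound site.

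Retnla (chromosome 16, 48842551 to 48844461, GRCm38) reached 21079 CPM [20912 to 21246] in cluster 8 under chow and 28199 CPM [27547 to 28863] under the ketogenic diet. These were 61374 and 7104 UMIs, or 2.11% and 2.82% of all transcripts of the cluster. No other cluster came near: the next was cluster 3 at 3083 CPM with chow and cluster 10 at 368 CPM with the ketogenic diet. The 362 chow cells held 69.7% of all Retnla UMIs among the clustered cells of their library, and the 47 ketogenic cells 71.2%.

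The other markers differed in how far they set the cluster apart. In chow cells Fcrls (chromosome 3, 87250758 to 87263738) was at 469 CPM and in ketogenic cells at 587 CPM, with the next clusters at 66.7 and 22.1 CPM. Lyz1 (chromosome 10, 117287797 to 117292868) was at 1745 CPM in chow and 3779 CPM in ketogenic cells, and cluster 3 came next at 713 and 618 CPM. Ear2 (chromosome 14, 44102654 to 44103534) was at 1002 CPM and 1195 CPM, with cluster 3 at 252 and 195 CPM. Fcrls and Ear2 were thus several-fold above every other cluster in both libraries.

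Fn1 and Aldh1a2 were shared with another cluster. Fn1 (chromosome 1, 71585520 to 71653200) was at 1748 CPM under chow, beside 1701 CPM in cluster 3, and at 1183 CPM under the ketogenic diet, beside 496 CPM. Aldh1a2 (chromosome 9, 71215789 to 71296243) was at 131 CPM in chow and 135 CPM in ketogenic cells, but at 200 and 159 CPM in cluster 12, where mature dendritic cell markers were highest. Lyz1 shares 16.1% of its 50-base stretches with another gene, mainly Lyz2, and Ear2 shares 41.5%, mainly with Ear10, so their counts are uncertain where reads could fall on either copy. Retnla, Fcrls and Aldh1a2 share none.

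Outside cluster 8, all 6 markers were at lower CPM in the ketogenic library in every other cluster, except Lyz1 in clusters 5 and 6. In cluster 1, where the natural killer (NK) cell list was highest, Retnla was at 562 CPM in the chow and 54.0 CPM in the ketogenic library, and Fn1 at 109 and 3.62 CPM. The lowest Retnla level of any other cluster was 417 CPM in the chow and 43.6 CPM in the ketogenic library. The fold of Retnla over all other clustered cells came to 14.4 in the chow and 213 in the ketogenic library. Free RNA in the droplets is read in every cluster, and its part in these levels was not tested.

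**Figure D1:**
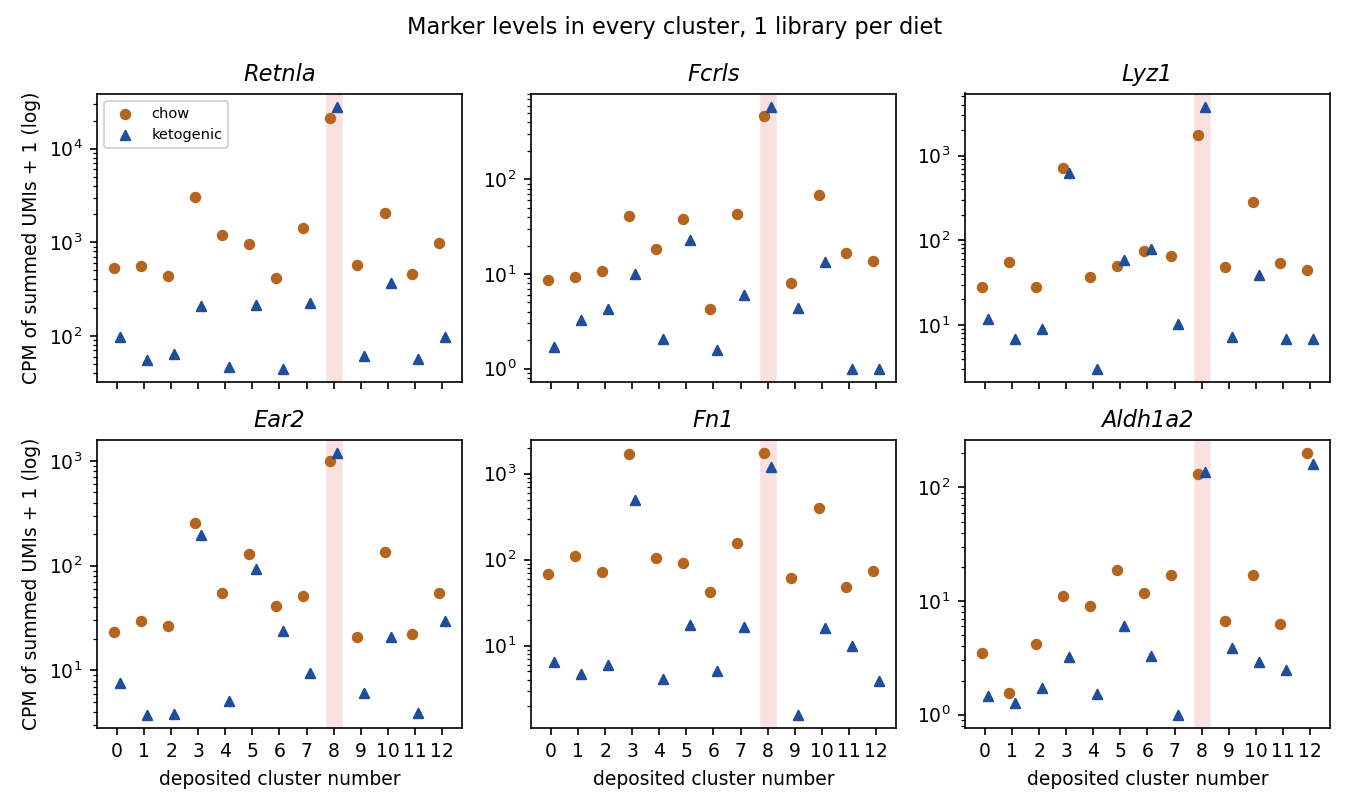
Level of each of the 6 markers (y axis, CPM of summed UMIs plus 1, log scale) in each of the 13 deposited clusters (x axis) of the chow library (circles) and the ketogenic library (triangles), with cluster 8 shaded. Retnla stands at 21079 and 28199 CPM in cluster 8, while Fn1 is shared with cluster 3 under chow and Aldh1a2 with cluster 12.

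The deposited clusters nearest in expression were 5 and 3. Pearson's r of log2 CPM profiles over 8709 genes was 0.960 with both under chow, followed by 0.924 with cluster 10 and 0.921 with cluster 6. Under the ketogenic diet it was 0.933 with cluster 5 and 0.920 with cluster 3. These correlations are across genes within 1 library and are descriptions. The macrophage marker list was highest in cluster 3, the cDC2 list in cluster 5, the cDC1 list in cluster 6 and the mature dendritic cell list in cluster 12. In a neighbour graph computed here from all genes, 86.9% of the links of chow cells of cluster 8 and 92.4% of those of ketogenic cells led to cluster 8 itself. Cluster 5 took 6.06% and 3.75%, and cluster 3 took 5.54% and 2.61%.

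**Figure D2:**
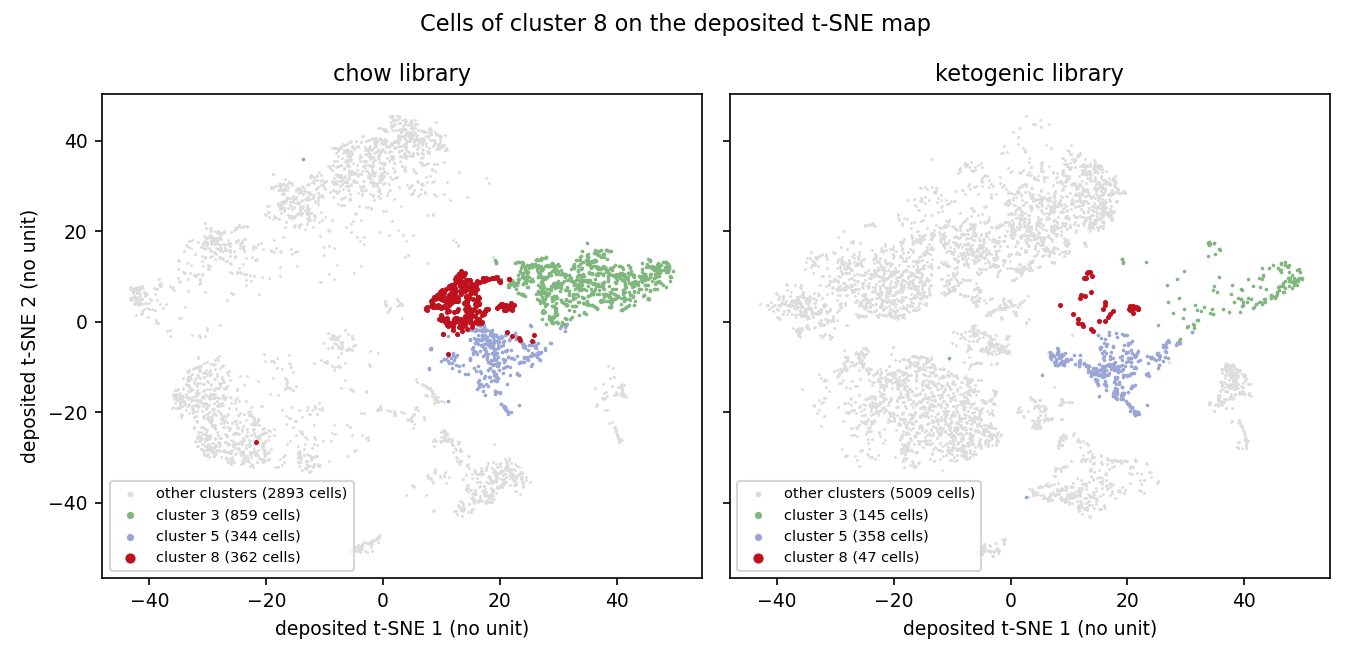
Deposited t-SNE coordinates (both axes, no unit) of every clustered cell of the chow library (left) and the ketogenic library (right), with cluster 8 in red, cluster 3 in green and cluster 5 in blue. The 362 chow cells and 47 ketogenic cells of cluster 8 form the red group that borders clusters 3 and 5, sparser in the ketogenic panel.

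Identity was described within each library as the fold of CPM plus 20 in cluster 8 over all other clustered cells, for genes with at least 100 UMIs. Under chow, 96 of 8709 genes (1.1%) were at least 2-fold higher and 210 (2.41%) at least 2-fold lower, around a median fold of 0.970. These counts were 179 and 596 with 5 CPM added in place of 20, 161 and 328 by mean CPM over cells, and 51 and 116 against myeloid clusters only. In the ketogenic library 260 of 9312 genes (2.79%) were at least 2-fold higher and 534 (5.73%) lower. The clustering used these genes, so none of this is a test. All 6 markers were at least 2-fold higher in both libraries. The 20 genes with the highest fold under chow were at least 2-fold higher in the ketogenic library too, the lowest being Blnk at 2.12-fold.

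Beside the markers, the leading genes included handlers of lipid, receptors and signalling proteins. Lpl, lipoprotein lipase, was at 988 CPM in chow and 1000.3 CPM in ketogenic cells, 7.24-fold over the rest under chow. Pltp, which transfers phospholipid between lipoproteins, was at 660.1 CPM and 794 CPM, or 4.47-fold under chow. Cfp, properdin of the alternative complement pathway, was at 837 CPM and 770.1 CPM, or 3.10-fold. Pilra (4.15-fold, an inhibitory receptor), Clec4b1 (3.18-fold, a C-type lectin), Slamf9 (3.09-fold), Rras2 (3.06-fold, a Ras-family GTPase) and Blnk (3.05-fold, an adaptor best known from B cells) were also in the ranking. Several of these were about as high in another cluster: under chow Slamf9 was at 207 CPM against 197 CPM in cluster 5, Rras2 at 120 CPM against 113 CPM in cluster 12, and Clec4b1 at 432 CPM against 341 CPM in cluster 5. With the ketogenic diet Blnk was at 55.6 CPM against 114 CPM in cluster 9 and 51.4 CPM in cluster 5, and Pilra at 131 CPM against 121 CPM in cluster 3.

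The ranking also held genes of other kinds. Upb1, an enzyme of pyrimidine breakdown, was at 141 CPM in chow and 183 CPM in ketogenic cells, or 3.64-fold over the rest under chow, where clusters 12 and 5 were at 134 CPM and 108 CPM. Spink2, a protease inhibitor of the Kazal family, was at 85.5 CPM and 67.5 CPM, or 3.74-fold. Hr, the corepressor hairless, stood at 47.7 CPM and 51.6 CPM (3.11-fold), against 1.79 CPM in all other chow cells. Kif19a, a kinesin, was 3.24-fold over the rest, and Cebpe, a transcription factor of granulocyte maturation, was at 50.1 CPM against 3.36 CPM in the rest. Cebpe rests on 8 UMIs and Spink2 on 17 UMIs in the ketogenic library.

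**Figure D3:**
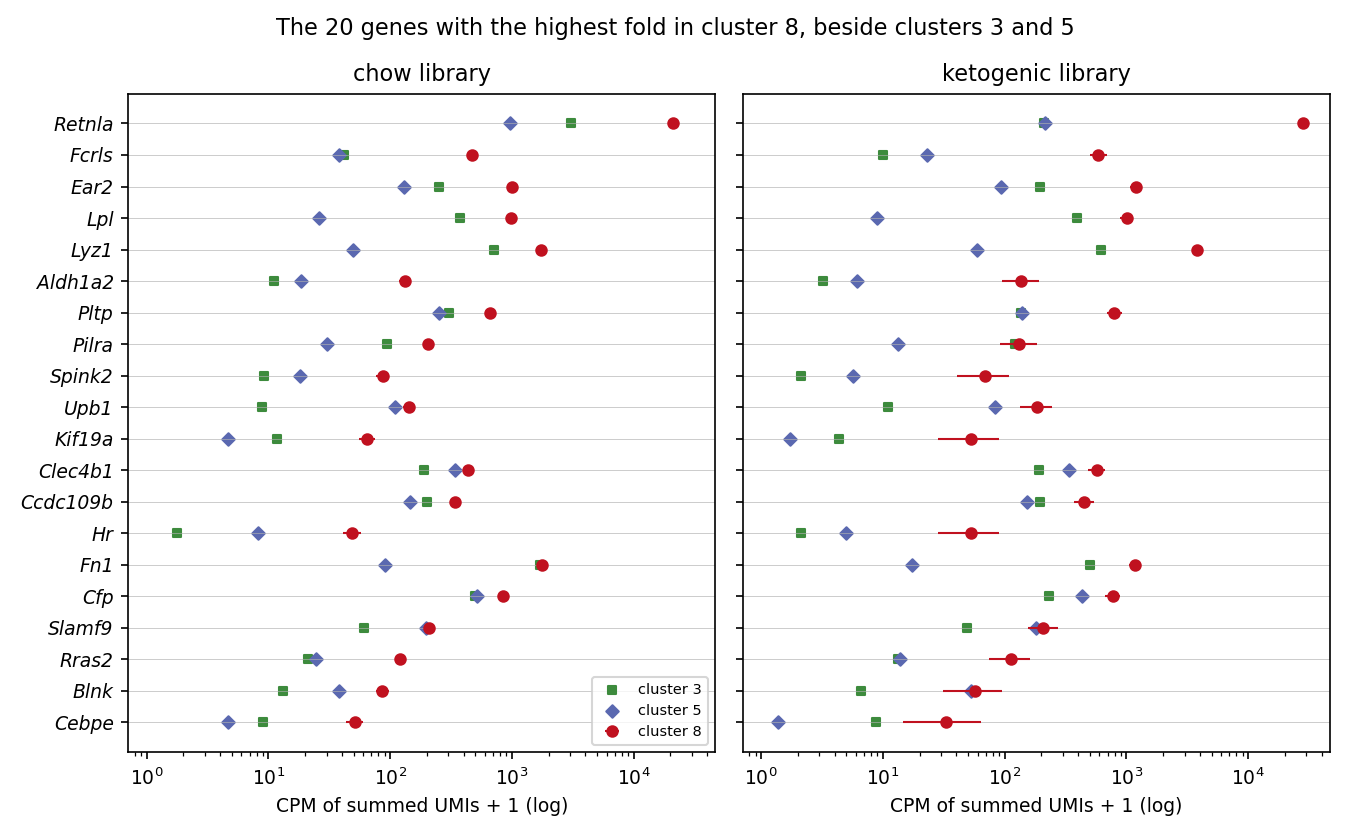
Levels of the 20 genes with the highest fold in cluster 8 under chow (x axis, CPM of summed UMIs plus 1, log scale) in cluster 8 (circles, with 95% Poisson intervals), cluster 3 (squares) and cluster 5 (diamonds), for the chow library (left) and the ketogenic library (right). Fn1 is at about the same level in clusters 8 and 3 under chow (1748 and 1701 CPM), and Cebpe has the widest interval in the ketogenic library, from 8 UMIs.

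Cluster 8 differed from cluster 3 by high Retnla, Fcrls and Cd24a and by low Apoe, Plac8 and Chil3. Under chow, 61 of 5773 genes (1.06%) were at least 2-fold higher than in cluster 3 and 147 (2.55%) at least 2-fold lower. Ccl17, a chemokine that recruits cells with CCR4, was at 469 CPM against 27.8 CPM, but 294 of the 362 chow cells had no UMI of it. Cd24a, a small surface glycoprotein, was at 435 CPM against 47.8 CPM, and Fgfr1, a fibroblast growth factor receptor, at 139 CPM against 15.9 CPM. H2-DMb2, a chaperone of MHC class II loading, was at 202 CPM against 25.6 CPM. All of the 10 leading higher genes were at least 2-fold higher than cluster 3 in the ketogenic library as well, where 2.35% of 1447 genes were. Those 1447 genes had at least 100 UMIs over both clusters, which not all of the 10 reached. Ccl17 had 11 ketogenic UMIs in cluster 8 and 1 in cluster 3, and Fgfr1 had 30 and Aldh1a2 34 in cluster 8.

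Of 8 classical monocyte genes, 5 were at least 2-fold lower than in cluster 3 under chow and none higher. Apoe, an apolipoprotein, was at 105 CPM against 3064 CPM in cluster 3 under chow, and at 83.4 CPM against 4668 CPM under the ketogenic diet. Plac8 was at 38.5 CPM against 1237 CPM and Chil3, a chitinase-like protein of monocytes and alternatively activated macrophages, at 12.4 CPM against 608 CPM under chow. The matrix protein Thbs1 was at 32.6 against 430 CPM and the complement receptor C5ar1 at 29.9 against 390 CPM. Of the 10 leading lower genes, 9 were also at least 2-fold lower in the ketogenic library, where 11.6% of genes were, and Ccl24 was 3.28-fold higher there.

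Against cluster 5, cluster 8 was high in Lyz1, Lpl and Fn1 and low in Cd209a, Flt3 and Tcf4. Under chow, 116 of 4359 genes (2.66%) were at least 2-fold higher and 85 (1.95%) at least 2-fold lower. Lyz1 was 25.8-fold, Lpl 22.4-fold, Fn1 16.1-fold and Ecm1, an extracellular matrix protein, 6.48-fold higher. C1qb, a chain of the first complement component, was at 179 CPM against 15.4 CPM. On the other side, Cd209a, a lectin of monocyte-derived and type 2 dendritic cells, was at 236 CPM against 1201 CPM. Flt3, the growth factor receptor of dendritic cells, was at 4.12 CPM against 90.2 CPM, and the transcription factor gene Tcf4 at 16.8 CPM against 142 CPM. Of the 10 cDC2 genes 5 were at least 2-fold lower and none higher, and of the 16 complement genes the 3 C1q chains were higher and 1 gene lower. All 10 leading genes of each direction were at least 2-fold different the same way in the ketogenic library, where 2.29% of 3018 genes were higher and 6.03% lower.

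The working name of the cluster calls it macrophage-like, and the marker lists only partly bore this out. Of 10 macrophage genes, 1 was at least 2-fold higher than in all other cells under chow (Itgam, an integrin subunit, 2.45-fold at 282 CPM) and 2 were lower (Aif1 and Fcgr1). In the ketogenic library 6 of the 10 were higher. Over all genes tested, 1.1% were higher and 2.41% lower under chow, and 2.79% were higher in the ketogenic library. The rest held fewer cells of cluster 3 there, 145 against 859 under chow, so the counts of the libraries have unlike references. None of the 10 was among the 10 leading genes. The summed level of the list was 12714 CPM, against 22556 CPM in cluster 3 and 2602 CPM in cluster 5 under chow. In the ketogenic library it was 14846 CPM, against 25446 CPM in cluster 3 and 2263 CPM in cluster 5. For these reasons the cells are called by their cluster number here.

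The macrophage genes split within the list. Lyz2 was at 11178 CPM, Cd14, a receptor for bacterial lipopolysaccharide, at 732 CPM and Cd68 at 193 CPM. Csf1r, the receptor for the macrophage growth factor, was at 143 CPM against 344 CPM in cluster 3 and 40.8 CPM in cluster 5. Adgre1, which encodes F4/80, was at 77.6 CPM against 160 CPM in cluster 3. Fcgr1 and Mertk had 15 and 4 UMIs over 362 cells. C1qa, C1qb and C1qc summed to 297 CPM under chow, against 1429 CPM in cluster 3 and 24.0 CPM in cluster 5.

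Markers of resident adipose and large peritoneal macrophages were mostly near 0. Among 12 genes of the resident adipose list, only the mannose receptor Mrc1 was at least 2-fold higher than in the rest under chow (191 CPM, 2.33-fold). In the ketogenic library 2 of the 12 were higher, where 2.79% of all genes were, against 1.1% under chow. The list summed to 336 CPM against 482 CPM in cluster 3 under chow, and to 306 against 290 CPM in the ketogenic library. Lyve1, Folr2 and Timd4 had 1, 2 and 5 UMIs under chow, and Vsig4 had 0 in both libraries. The large peritoneal list summed to 27.5 CPM, with 1 UMI of its regulator Gata6 and none of Prg4 or Cxcl13. Markers known from MHC class II-bearing macrophages of the serous cavities were present: Cd226 was at 45.0 CPM against 5.71 CPM in cluster 3, Irf4 at 79.3 CPM against 26.8 CPM and Itgax at 81.4 CPM against 30.9 CPM. Against all other cells, Irf4 alone of the 8 genes of that list was at least 2-fold higher under chow (2.10-fold). The list was highest in cluster 5, at 64367 CPM against 38026 CPM in cluster 8 under chow, and 69477 against 43645 CPM in the ketogenic library. In both libraries 0 of the 8 genes were at least 2-fold higher than in cluster 5 and 1 was lower.

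Monocyte and dendritic cell lists gave a mixed picture. Of 8 classical monocyte genes none was at least 2-fold higher and 5 were lower under chow: Vcan had 4 UMIs and Hp 9, whereas Ccr2 was at 640.2 CPM and S100a4 at 1395 CPM. The cDC2 list of 10 had 3 lower and 2 higher genes, Tnip3 (511 CPM, 2.81-fold) and the lectin Mgl2 (328 CPM, 2.34-fold), and Flt3 had 12 UMIs and Zbtb46, a defining transcription factor of cDC, 21. The cDC1 list of 8 had Batf3 (286 CPM, 2.41-fold) and Cd24a (2.26-fold) higher and 1 gene lower, while its defining genes Xcr1 and Clec9a had 5 and 11 UMIs. Among ketogenic cells 1 cDC1 gene was higher (Batf3, 4.45-fold) and 2 were lower, and Cd24a was 1.63-fold over the rest. The cDC2 counts there were again 2 higher and 3 lower, and 4 of the classical monocyte genes were lower. Among all genes tested, 1.1% were higher and 2.41% lower under chow, and 2.79% and 5.73% in the ketogenic library. Mature dendritic cell genes summed to 68.3 CPM, against 7235 CPM in cluster 12.

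Lists of other cell types stayed low in cluster 8 under chow. Of the 6 eosinophil genes, Epx, Prg2, Ccr3 and Il5ra had 0 UMIs, Siglecf had 7 and Ear1, a ribonuclease of the same family as Ear2, held 51 of the list's 58. The ketogenic cells had 6 UMIs of the list, all of Ear1, which was 2.16-fold over the rest there. Neutrophil genes summed to 64 UMIs, mast cell genes to 5.15 CPM, red cell genes to 9.62 CPM and stromal, mesothelial, endothelial and fat cell genes to 6.87 CPM. T cell genes summed to 171 CPM, NK cell genes to 192 CPM, ILC2 (group 2 innate lymphoid cell) genes to 345 CPM and B and plasma cell genes to 112 CPM. The clusters highest in these 4 lists were between 4590 and 47502 CPM. Cells that combine 2 types were looked for with Scrublet, which marked 8 and 2 cells of the whole libraries and none in cluster 8. At such low rates it cannot be taken to have worked.

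MHC class II genes were strongly expressed. The 11 genes of the list summed to 53367 CPM under chow, between 42127 CPM in cluster 3 and 90011 CPM in cluster 5, and H2-DMb2 was the only member at least 2-fold higher than in the rest (2.50-fold), with 1 lower. In the ketogenic library 6 of the 11 were higher than in the rest and 2 lower. The shares of all genes were 1.1% higher and 2.41% lower under chow, and 2.79% and 5.73% in the ketogenic library. The invariant chain Cd74 was at 26558 CPM and H2-Ab1 at 10386 CPM. Ciita, the master activator of the pathway, was at 22.3 CPM.

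Of 13 genes of alternative activation, 4 were at least 2-fold higher than in the rest under chow (Retnla, Mgl2, Mrc1 and Ccl17, the last carried by 68 of 362 cells) and 3 lower. The counts were also 4 higher and 3 lower in the ketogenic library. Shares over all genes tested were 1.1% higher and 2.41% lower under chow, and 2.79% and 5.73% in the ketogenic library. Chil3, one of the lower genes, had 36 UMIs. The other members of the resistin family, Retn, Retnlg and Retnlb, had 3, 1 and 0 UMIs. Of 16 retinoid genes Aldh1a2 alone was higher under chow, and 2 were in the ketogenic library. The related enzymes Aldh1a1 and Aldh1a3 had 0 UMIs under chow.

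In the lipid-associated macrophage list, Lpl was the only 1 of 15 genes at least 2-fold higher than in the rest under chow and 1 was lower, while 9 of the 15 were at least 2-fold lower than in cluster 3. Of the same 15, 4 were higher than in the rest and 1 lower in the ketogenic library. For all genes tested, 1.1% were higher and 2.41% lower than in the rest under chow, and 2.79% and 5.73% in the ketogenic library. Against cluster 3 under chow, 2.55% of all genes were lower. Trem2, the lipid-sensing receptor of that state, had 10 UMIs, and Spp1, osteopontin, 34. Among ketone body genes, Oxct1, which commits ketone bodies to use as fuel, was at 102 CPM against 29.5 CPM in cluster 3 and 38.5 CPM in cluster 5. It was 2.13-fold over the rest, the only 1 of 11 genes of that list to be higher under chow, against 2 of 11 in the ketogenic library.

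By fold over the rest under chow, secreted signals were led by a few chemokines and a cytokine. By level, Cxcl2 (2100 CPM) was above Ccl9, and Il1b was above Il6. Ccl6 at 3944 CPM and Ccl9 at 1799 CPM were each 2.26-fold over the rest under chow, and with Ccl17 made up the 3 higher genes among 18 chemokines, of which 5 were at least 2-fold lower. Against cluster 3, 9 of the 18 were lower. Il6 was at 209 CPM, 2.98-fold over the rest, the only higher gene of 16 cytokines and growth factors under chow. Csf2ra, a chain of the receptor for GM-CSF, was at 296 CPM and 2.16-fold, the only higher gene of 17 receptors under chow, with 1 lower. In the ketogenic library 5 chemokines were higher and 2 lower, 4 cytokines higher and 1 lower, and 3 receptors higher and 3 lower. Of all genes tested there, 2.79% were higher and 5.73% lower. Of 28 transcription factors, Batf3 and Irf4 were at least 2-fold higher under chow and 2 were lower, against 4 and 3 in the ketogenic library. Under chow none of the 25 fatty acid oxidation, 10 NLRP3 inflammasome, 18 interferon response or 18 cell cycle genes was higher, and 0, 0, 1 and 5 of them were lower. Since 1.1% of all genes were higher, a count of 0 in lists of this size is close to the background. In the ketogenic library 1, 0, 1 and 0 of these genes were higher and 0, 0, 4 and 5 lower.

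Within the cluster, the markers were spread unevenly over cells. To compare cells of unlike depth, each was thinned to 1000 UMIs, and the share of cells keeping a UMI was set beside that in NK-rich cluster 1, which should lack these genes (median depth 2296.5 UMIs under chow and 3147 under the ketogenic diet). Retnla was found in 88.7% [84.95 to 91.7] of chow cells and 89.4% [76.9 to 96.5] of ketogenic cells, against 39.9% and 5.18% in cluster 1. Ear2 was found in 55.8% and 63.8%, against 2.49% and 0.282%. Fcrls was found in 35.1% and 40.4%, against 0.691% and 0.188%.

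Fn1 was found in 70.4% of chow cells and 57.4% of ketogenic cells after thinning, against 7.87% and 0.282% in cluster 1. Lyz1 was found in 39.8% and 48.9%, against 3.87% and 0.565%. Aldh1a2 was found in 12.2% and 12.8%, while the expected number of thinned cells in cluster 1 rounded to 0. Without thinning, 0.138% and 0.0942% of the cells of cluster 1 had an Aldh1a2 UMI. Without thinning the shares in cluster 8 under chow ran from 52.2% for Aldh1a2 to 99.2% for Retnla.

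Single cells ranged widely in Retnla and Lyz1. Retnla ran from 0 to 1064 UMIs per chow cell with a median of 115.5, and from 0 to 701 with a median of 107 under the ketogenic diet. Lyz1 ran from 0 to 175 UMIs with a median of 2 under chow, and from 0 to 156 with a median of 2 under the ketogenic diet. Fn1 had a median of 12 and a maximum of 57 UMIs under chow, and Fcrls a median of 3 and a maximum of 27. Ranked by variance beyond that expected from depth, the genes with the widest spread among chow cells were Retnla, Ccl17, Lyz1, Actb, Malat1, Cxcl2, Lyz2 and Mt1. Of the 20 widest, 11 were also among the 20 widest in the ketogenic cells.

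**Figure D4:**
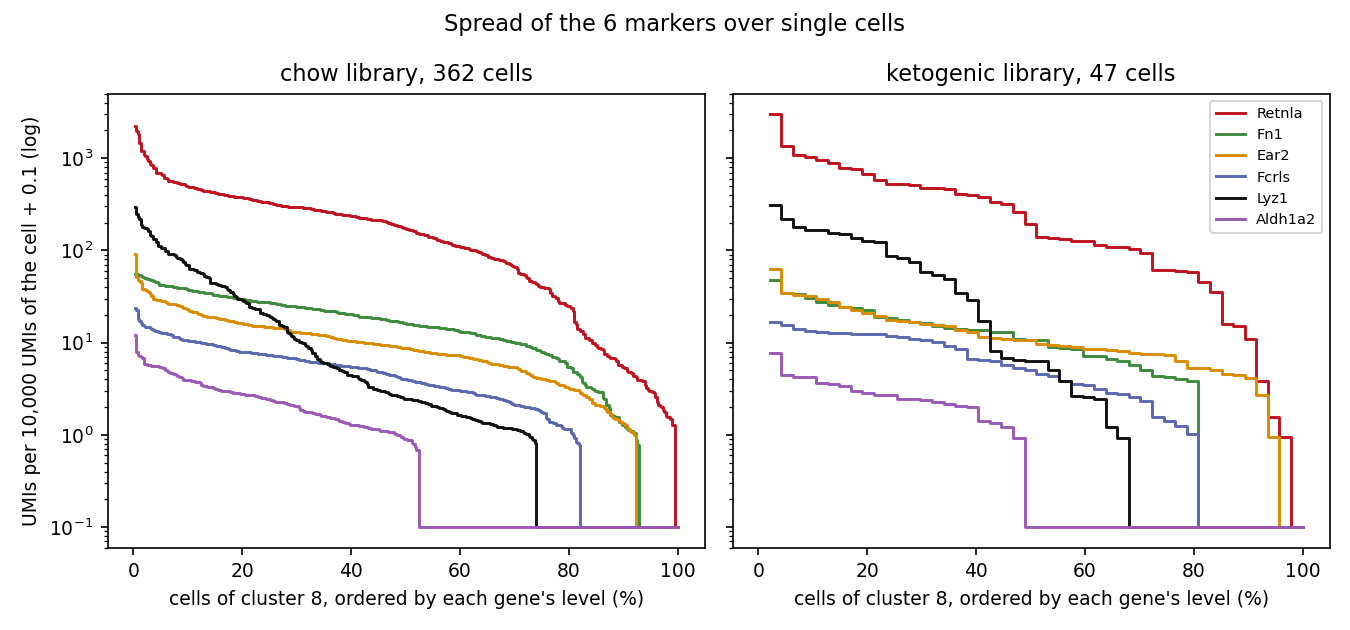
UMIs of each marker per 10000 UMIs of the cell plus 0.1 (y axis, log scale), with the cells of cluster 8 ordered from highest to lowest for each gene (x axis, percent of cells), in the chow library (left, 362 cells) and the ketogenic library (right, 47 cells). Lyz1 falls from a highest cell of 175 UMIs to a median of 2 UMIs under chow, and Retnla is above 0 in all but 3 chow cells.

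Lyz1 was concentrated in a minority of cells that carried less Ccl17 and Cd209a. Cells with at least 10 Lyz1 UMIs numbered 97 of 362 under chow and 17 of 47 under the ketogenic diet. The threshold was set after seeing the values and marks a range, not a type: 6 chow cells had 9 UMIs and 2 had 10. Lyz1-high chow cells had a median of 7243 UMIs, against 8101 in the others. Of 2948 genes, 10 (0.339%) were at least 2-fold higher in the Lyz1-high chow cells and 12 (0.407%) at least 2-fold lower, Lyz1 itself, which chose the cells, among the higher.

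Akr1c18, Ecm1 and Ctsd were among the genes high in Lyz1-high cells, and C1qa was high under chow alone, through few cells. Under chow Akr1c18, a hydroxysteroid dehydrogenase, was at 108 CPM against 21.8 CPM, Ecm1 2.77-fold higher at 343 CPM, and C1qa at 149 against 41.3 CPM. Most C1qa UMIs of the Lyz1-high chow cells lay in 3 cells, with 27, 23 and 16. Ctsd, a lysosomal protease, was at 663 against 287 CPM. Retnla was 1.92-fold, Fn1 1.97-fold and Fcrls 1.81-fold higher, and Ear2 about equal at 1.05-fold. In the ketogenic cells Ecm1, Akr1c18 and Ctsd were also higher, at 4.33-fold, 12.1-fold and 2.32-fold, but C1qa was lower at 0.319-fold with 3 and 31 UMIs.

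The genes low in Lyz1-high cells included Ccl17 and several lectins. Ccl17 was at 50.1 CPM against 617 CPM under chow, Cd209a at 65.9 against 295 CPM, Mgl2 at 101 against 408 CPM and Clec10a, another lectin, at 35.6 against 126 CPM. H2-Ab1 differed less, at 0.762-fold. Under the ketogenic diet Cd209a had 1 UMI in the 17 Lyz1-high cells and 59 in the 30 others, and Mgl2 had 0 and 64. Few cells carried much of this: 1 cell held 21 and another 19 of the 59 Cd209a UMIs, and 1 cell held 19 of the 64 Mgl2 UMIs. Ccl17 was itself carried by few cells: 68 of 362 chow cells had a UMI, and the tenth of cells with most Ccl17 held 97.7% of its UMIs.

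A smaller fringe of cells carried little Retnla. Fewer than 5 Retnla UMIs were found in 37 chow cells and 6 ketogenic cells, again a threshold set after seeing the values (7 chow cells had 4 UMIs and 9 had 5). In these chow cells Cd209a was at 653 against 195 CPM, Mgl2 at 807 against 281 CPM and the transferrin gene Trf at 506 against 187 CPM. Lyz1 was at 155 against 1900.3 CPM, Lpl at 375 against 1048 CPM and Fcrls at 193 against 496 CPM. Of 2948 genes, 7 (0.237%) were at least 2-fold higher and 52 (1.76%) lower, in 258885 UMIs from the fringe. A clustering computed here from all genes placed 304 of the 362 chow cells in the cluster matched to 8, 38 in that matched to 5 and 18 in that matched to 3. Of the 37 Retnla-low cells it placed 19 with cluster 8, 13 with cluster 5 and 4 with cluster 3. The median Retnla count was 153 UMIs in the 304 cells and 6 in the 38.

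The share of cluster 8 was lower in the ketogenic library. It made up 8.12% [7.33 to 8.96] of clustered chow cells and 0.845% [0.622 to 1.12] of clustered ketogenic cells, a ratio of 0.104 [0.0751 to 0.141]. With 1 library per diet this compares 2 libraries and has no replicate check. Over the 5 myeloid clusters alone (3, 5, 6, 8 and 12) the shares were 18.7% and 4.93%, a ratio of 0.263. Cluster 3 had 859 and 145 cells and cluster 5 had 344 and 358.

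Because Lyz1 itself differed by diet, a second clustering left out the 1140 genes whose level in any deposited cluster was 2-fold or more apart in the libraries. At resolution 1 its match to cluster 8 had 317 cells from chow and 44 from the ketogenic diet, which gives 0.111 as the ratio of shares. At resolution 0.5 no cluster matched: 334 chow cells and 45 ketogenic cells of cluster 8 fell with cluster 5. Counting cells of any cluster with an Fcrls UMI after thinning gave 190 and 38 cells, a ratio of 0.160.

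Within cluster 8, each gene was given a log2 ratio of ketogenic to chow CPM, with 0.5 added to each count. Of 3134 genes with at least 100 UMIs, 23 (0.734%) were at least 2-fold higher and 152 (4.85%) at least 2-fold lower, around a median of -0.04. The counts moved with the settings: 79 were higher and 348 lower at a minimum of 50 UMIs, 6 and 47 at 200 UMIs, and 7 and 327 without the top cell of each gene. The 5th and 95th percentiles were -0.98 and 0.61. The counting interval left out 1 for 133 of the 175 genes. The 47 ketogenic cells limit this comparison: 40 of the 152 lower genes had 3 UMIs or fewer there.

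Summed over cells, the log2 ratio of the markers was 1.12 for Lyz1, 0.42 for Retnla, 0.33 for Fcrls and 0.26 for Ear2, with intervals that left out 1. The median cell had less Retnla in the ketogenic library, at 13997 CPM against 17133 CPM, while the 75th percentile was higher, at 51780 CPM against 32721 CPM. Aldh1a2 was at 0.07, with an interval that held 1, and Fn1 was lower at -0.56. Lyz1 rests on 952 ketogenic UMIs, of which the top cell held 156, and its log2 ratio was 0.91 without the top cell of each library. In cluster 3 Lyz1 was at -0.21.

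Among the 10 highest ratios, Osm, Dcstamp and Ms4a4b were found in 2, 7 and 9 of the 47 ketogenic cells and the other genes in 13 to 20. Osm, the cytokine oncostatin M, was at 34.3 CPM in chow and 119 CPM in ketogenic cells (log2 1.81), but 26 of its 30 ketogenic UMIs lay in 1 cell. Without the top cell of each library the direction turned, to -0.70. Ccl24, an eosinophil-recruiting chemokine, was at 102 CPM and 318 CPM (log2 1.65), with 33 of its 80 UMIs in 1 cell. In clusters 3 and 5 the ratio of Ccl24 was -4.04, and in lymphoid cells it was -3.82. Dcstamp, a fusion protein of myeloid cells, rested on 7 ketogenic cells (log2 1.63).

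Hspa1a, a heat shock protein, was at 102 CPM and 337 CPM (log2 1.74). It was also higher in cluster 3 (1.45), cluster 5 (1.55) and lymphoid cells (1.52). It shares 60.3% of its 50-base stretches, mainly with Hspa1b. Clec12a, an inhibitory lectin, was at 33.7 CPM and 107 CPM in 16 ketogenic cells (log2 1.69). Socs3, a brake on cytokine signalling, was at 85.5 CPM and 214 CPM in 20 ketogenic cells (log2 1.34). Ypel3 (1.49), Ms4a4b (1.23), Pkp3 (1.16) and Fgd2 (1.15) completed the 10.

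The chemokines Ccl7, Cxcl1 and Ccl17 were among the 10 lowest ratios. Ccl7, a monocyte attractant, had 165 UMIs in 62 chow cells and 0 in the ketogenic cells, at least 4.76-fold lower when 3 UMIs over all 47 cells are taken as the floor. It was lower in cluster 3 (-1.75), in cluster 5 (-5.79) and in lymphoid cells (-4.99) too. Cxcl1, a neutrophil attractant, had 244 UMIs and 1, a ratio of chow over ketogenic of 21.1 [3.75 to 837]. Its log2 ratio was -1.82 in cluster 3, -0.73 in cluster 5 and -1.01 in lymphoid cells. Ccl17 was at 469 CPM in chow and 43.7 CPM in ketogenic cells (log2 -3.36), with 68 and 4 cells carrying it. It was lower in cluster 3 (-4.05), in cluster 5 (-2.39) and in lymphoid cells (-2.65) as well. Of 14 chemokines with at least 10 UMIs, 1 was at least 2-fold higher and 5 lower, where 6.88% of 8900 genes at that minimum were higher and 13.2% lower.

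The other genes with the lowest ratios had at most 3 ketogenic UMIs. AA467197, also named Nmes1, had 141 UMIs and 0, at least 4.07-fold lower. Gm26870, a predicted gene, had 200 and 1 UMIs, a chow over ketogenic ratio of 17.3 [3.07 to 687]. It was lower in clusters 3 (-4.31) and 5 (-3.26) and in lymphoid cells (-2.11) too. Under chow it was at 150 CPM in lymphoid cells, above the 68.7 CPM of cluster 8. Ptgs2, the inducible cyclooxygenase, had 205 and 3 UMIs, a ratio of 5.91 [1.99 to 28.9]. Piezo1, a mechanically gated channel, Mras, a small GTPase, and Gm7676, a predicted gene, had 1, 1 and 2 ketogenic UMIs. Gzma, a protease of cytotoxic lymphocytes, had 170 and 3 UMIs.

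**Figure D5:**
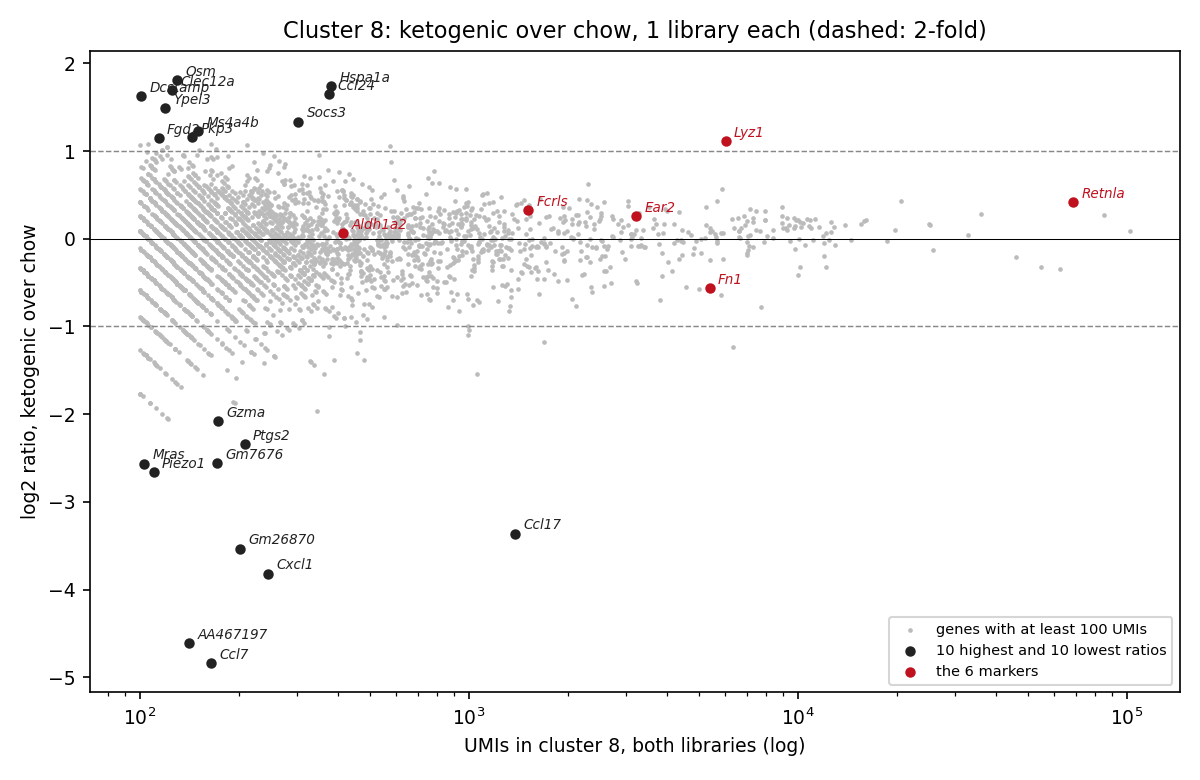
Log2 ratio of CPM in cluster 8, ketogenic over chow (y axis), against the UMIs of the gene in both libraries together (x axis, log scale), for 3134 genes with at least 100 UMIs, 1 library per diet. Dashed lines mark 2-fold, red points the 6 markers and black points the 10 highest and 10 lowest ratios. Lyz1 lies above the upper line at 1.12, and Ccl17 is the most abundant of the 10 lowest at -3.36.

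Across the lists of gene programs, 16 of 227 genes measured at 10 UMIs or more were at least 2-fold higher and 29 lower, with a median of -0.04 beside -0.01 over all 8900 genes. These counts are close to the shares over all 8900 genes, 6.88% higher and 13.2% lower. In the alternative activation list 1 of 12 was higher (Ccl24) and 4 lower, among them Ccl17, Chil3 and Tgm2. MHC class II genes had 1 higher (H2-Oa, 18 and 4 UMIs) and 1 lower (Ciita, 65 and 2 UMIs) of 10, with a median of 0.17. In the lipid list Plin2, which coats lipid droplets, was at 352 CPM and 119 CPM (-1.54), with Trem2 and Fabp4 higher on 3 and 5 ketogenic UMIs. The 3 C1q genes were between 0.67 and 0.98, and together were at 297 CPM in chow and 508 CPM in ketogenic cells, where 1 cell held 18 of 34 C1qa UMIs, 25 of 71 C1qb UMIs and 16 of 23 C1qc UMIs.

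Of 13 cytokines and growth factors 1 was at least 2-fold higher and 1 lower, and of 25 transcription factors 2 were higher and 4 lower, beside the 6.88% and 13.2% of all genes at that minimum. Il1b was at 1238 CPM in chow and 762 CPM in ketogenic cells (-0.70), and none of the 10 NLRP3 inflammasome genes was 2-fold different in either direction. Irf4 was at 79.3 CPM and 27.8 CPM (-1.42). Cxcl2, a neutrophil attractant, was at 2100 CPM and 889 CPM (-1.24), and Cxcl10, an interferon-induced chemokine, at 116 CPM and 27.8 CPM (-1.97). Cd44, the hyaluronan receptor, was at 561 CPM and 246 CPM (-1.18), with ratios of -1.10 in cluster 3 and -1.32 in cluster 5. Cx3cr1 had 24 and 14 UMIs, all 14 of them in 1 ketogenic cell.

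Both metabolic lists had counts near the 6.88% and 13.2% of all genes. Of 8 ketone body genes, none was higher and Slc16a1, a monocarboxylate transporter with 16 and 0 UMIs, was lower, around a median of 0.19. Oxct1 was at 0.15. Of 21 fatty acid oxidation genes, 2 were higher (Etfdh and Hadh) and 2 lower (Echs1 and Acot1), with a median of -0.09. The interferon list had 2 higher and 2 lower of 12, each on 3 ketogenic UMIs or fewer.

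Transcripts of another cell type also differed between the libraries within the cluster. The 8 T cell genes were all above 0, 4 of them at least 2-fold (Trbc2, Cd3e, Cd3d and Cd3g). They summed to 171 CPM in chow and 341 CPM in ketogenic cells. Of all 8900 genes with at least 10 UMIs, 6.88% were at least 2-fold higher and 13.2% lower. Of the 24 ketogenic Trbc2 UMIs, 13 lay in 1 cell. In cluster 3 the same genes summed to 166 CPM with chow and 345 CPM with the ketogenic diet. The 5 NK cell genes with at least 10 UMIs had a median of -0.44, with 1 at least 2-fold lower. The 7 ILC2 genes had a median of -0.90, with 3 at least 2-fold lower, and neither list had 1 higher. The part of such transcripts, and of the unlike depth of the 2 groups of cells, in the differences above was not tested.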

How the data were processed

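The authors deposited, per the file headers and values, a matrix of raw UMI counts per gene and cell for each library. The t-SNE coordinates, a score with no unit, and the cluster numbers at resolution 0.5 were computed by the authors over both libraries, per the file headers; settings are not given in the sources used here. Cell Ranger, Seurat and mm10 are named, without versions, in the submitters' processing notes. Here counts were summed over cells and scaled to CPM with Python 3.11.15, numpy 2.4.6, scipy 1.17.1 and pandas 2.3.3. Genes named are the 6 markers, the 20 highest folds, the 10 highest and lowest against clusters 3 and 5, the 10 highest and lowest diet ratios, and list genes that were most abundant or at least 2-fold different. Mitochondrial, immunoglobulin and T cell receptor genes were left out of rankings. Members and lists were chosen with earlier results of these data known. Intervals are exact (binomial, Poisson or conditional) at 95%. Thinned shares are exact hypergeometric expectations, rounded to whole cells. Clustering used scanpy 1.11.5 and leidenalg 0.10.2 on 2000 variable genes, 30 components and 15 neighbours. Positions come from GENCODE M21 by Ensembl ID (435 of 435 found). The scripts were tested on simulated data. Values of some list genes are not reported here.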

Additional observations from a re-analysis of the deposited data

Results flagged for a closer look

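In 3 genes with at least 100 UMIs in each cluster, the ketogenic over chow ratio was at least 2-fold in cluster 8 and at least 2-fold the opposite way in cluster 3. With 1 library per diet the difference between the clusters was not tested. Ccl24 had a log2 ratio of 1.65 in cluster 8 (296 chow and 80 ketogenic UMIs) and -4.04 in cluster 3 (6964 and 74 UMIs). Plac8 had a log2 ratio of -1.48 in cluster 8 (112 and 3 UMIs) and 1.16 in cluster 3 (6280 and 2470 UMIs). Fgl2, a fibrinogen-like protein of macrophages and T cells, had a log2 ratio of -1.14 in cluster 8 (216 and 8 UMIs) and 1.01 in cluster 3 (295 and 104 UMIs).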

How the results depend on the processing

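The ratio of shares was 0.263 over myeloid clusters only and 0.160 by Fcrls, and between 0.0756 and 0.119 under the other alternatives. Genes at least 2-fold higher in cluster 8 under chow numbered 179 with 5 CPM added, 161 by mean CPM over cells and 51 against myeloid clusters only, and those lower 596, 328 and 116. In the diet comparison 79 genes were higher and 348 lower at a minimum of 50 UMIs, 6 and 47 at 200 UMIs, and 7 and 327 without the top cell of each gene, which takes a larger share from 47 cells than from 362. Of the 20 genes named there, 9, 7, 13 and 12 stayed in the ranking at a minimum of 50 UMIs, at 200 UMIs, with 10% free RNA subtracted and in the cells matched by the clustering computed here. Osm turned to -0.70 without its top cell and -0.78 in the matched cells. Program genes higher were 25 at a minimum of 3 UMIs and 6 at 50 UMIs, where 16 were lower. The median share of cells over the 6 markers, 47.8% under chow and 53.2% under the ketogenic diet, was 86.9% and 78.7% without thinning and 64.5% and 66.0% at 2000 UMIs. Of the main values compared under these alternatives, 25 moved and 40 did not. Of the other values, for single genes and shares, 45 moved, 2 turned direction and 330 did neither. The rule for a move depended on the kind of value, such as leaving an interval or crossing 2-fold. The clusters computed here, the Fcrls count and the matched cells were chosen after seeing the data. Clustering without differing genes at resolution 0.5 gave no value. No paired analysis was possible because each diet has 1 library. Depth limits every gene with few UMIs in the 47 ketogenic cells.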
